A study of Rattus norvegicus with 12 samples.

Results

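Bone morphogenetic protein (BMP) signaling was described here through 10 genes, chosen by symbol from the 21556 genes with values. They are the ligands *Bmp2* and *Bmp4*, the receptors *Bmpr1a* and *Bmpr2*, the decoy receptor *Bambi*, the inhibitory SMADs *Smad6* and *Smad7*, and the inhibitor of differentiation genes *Id1*, *Id2* and *Id3*. The RNA came from ND7/23, a hybrid line of rat dorsal root ganglion (DRG) neurons and mouse N18Tg2 neuroblastoma cells, in 12 libraries with 3 for each of 4 groups. The control cells were given neither agent, the menthol group was given 100 μM menthol, an agonist of the cold channel TRPM8, the Wnt3a group was given 100 ng/ml Wnt3a, which activates β-catenin signaling, and the menthol+Wnt3a group was given both, with 6 h in each group. No genotype or allele separates the groups. The supplementary methods describe menthol stimulation in DMEM with penicillin and streptomycin, without naming serum, and do not give the medium for Wnt3a. ND7/23 is a single line, the sources used here do not say whether the sequenced cells had been differentiated, and the labels do not say whether the 3 libraries of a group came from separate cultures, so the p-values measure the spread between these libraries.

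BMP ligands bind a complex of type I and type II receptor kinases, which phosphorylates SMAD1, SMAD5 and SMAD9. These enter the nucleus with SMAD4 and switch on target genes, of which the ID genes and the inhibitory SMADs are the best known, and the inhibitory SMADs then damp the same signal. ID proteins lack a DNA-binding region and hold E proteins away from DNA, which in many lineages, neurons included, is linked to the hold on differentiation, and ID genes also answer growth factors other than BMPs.

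The values are FPKM, read fragments scaled by transcript length and by the mapped fragments of the library, so levels of different genes can be compared per length. Whole reads could be recovered from the FPKM steps for 100.0% of the genes, and 36914010 to 38836269 reads lay on genes in each library. The threshold for a gene to be called, in a fit of all 4 groups with limma over the 11451 genes with a mean of at least 0.5 FPKM, was an adjusted p under 0.05. *Axin2*, a feedback target of Wnt/β-catenin signaling, rose with Wnt3a from 4.95 ± 0.201 FPKM in control and 5.01 ± 0.402 with menthol to 7.10 ± 0.479 with Wnt3a and 8.30 ± 0.445 with both (SD, n = 3, limma adjusted p = 4.17e-05 for Wnt3a against no Wnt3a). In bulk RNA, here and in all results below, fewer cells that make a transcript and less of it per cell cannot be told apart. Of 8 neuronal markers, *Uchl1* (101 FPKM) and *Isl1* (13.2 FPKM) were abundant, while *Prph*, *Nefl*, *Nefm*, *Tubb3*, *Gap43* and *Stmn2* all had a mean under 0.1 FPKM. The summed neuronal list was at 105 to 114 FPKM in control, 111 to 122 with menthol, 113 to 121 with Wnt3a and 114 to 126 with both agents. Collagen *Col1a2* stood at 115 FPKM, and the summed fibroblast list was at 136 to 145 FPKM in control, 124 to 128 with menthol, 129 to 135 with Wnt3a and 124 to 126 with both agents. The summed Schwann list was at 0.503 to 0.58 FPKM in control, 0.404 to 0.649 with menthol, 0.513 to 0.894 with Wnt3a and 0.768 to 1.1 with both agents. The summed muscle, immune, epithelial and endothelial lists overlapped between the groups and stayed at or below 2.83 FPKM in every library, with *Ptprc* at 0.00339 and *Sox10* at 0.00144 FPKM. The neuronal and Schwann sums thus reached their highest values, and the fibroblast sum its lowest, in groups whose *Id1* libraries all lay above those of control. The part of these lists in the results below was not tested.

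The stretches before the starts of the 3 ID genes are shown because the Wnt3a difference described below was positive and past the test in *Id1* and not in *Id2* or *Id3*, and the ratios of these genes are given with them. They are from RefSeq, build GRCr8, which is not the build named in the submitters' processing notes (mRatBN7.2), and each holds the 250 bases before the annotated start, written in the direction of the gene. Capitals mark the SMAD box GTCT, or AGAC on the other strand, and the TATA box TATAAA, or TTTATA on the other strand. *Id1* lies at chr3:161671314-161671563 on the plus strand, *Id2* at chr6:47470996-47471245 on the minus strand and *Id3* at chr5:153656041-153656290 on the plus strand.
Id1: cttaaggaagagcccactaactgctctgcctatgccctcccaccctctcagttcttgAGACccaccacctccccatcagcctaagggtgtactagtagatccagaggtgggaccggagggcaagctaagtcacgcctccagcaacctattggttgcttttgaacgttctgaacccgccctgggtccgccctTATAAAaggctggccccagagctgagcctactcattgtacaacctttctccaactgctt
Id2: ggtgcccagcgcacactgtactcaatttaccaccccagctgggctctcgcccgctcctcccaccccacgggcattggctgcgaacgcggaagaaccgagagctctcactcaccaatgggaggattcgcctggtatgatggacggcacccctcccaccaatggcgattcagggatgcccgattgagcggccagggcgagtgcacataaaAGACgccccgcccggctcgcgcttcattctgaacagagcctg
Id3: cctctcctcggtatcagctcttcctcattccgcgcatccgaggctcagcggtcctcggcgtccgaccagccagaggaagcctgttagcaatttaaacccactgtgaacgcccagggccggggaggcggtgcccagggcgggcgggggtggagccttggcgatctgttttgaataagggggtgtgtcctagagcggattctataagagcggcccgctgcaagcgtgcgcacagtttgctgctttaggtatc
The *Id1* stretch holds 1 SMAD box and 1 TATA box, the *Id2* stretch 1 SMAD box and no TATA box, and the *Id3* stretch neither. Their GC content was 54.8%, 62.8% and 61.2%. The SMAD box is short and was found in 84.0% of all 33469 stretches of this kind, and in 6 of the 8 BMP genes that have one (*Bambi*, *Bmp4*, *Bmpr1a*, *Id1*, *Id2* and *Smad7*). TATAAA was in 12.9% of all stretches and in *Bmpr1a* and *Id1*. The longer BMP-type element GGCGCC was in 8.69% of all and in *Bambi* and *Smad7*. The TCF letters CTTTGA were in 13.9% of all and in *Bmpr1a*, the TCF letters CTTTGT in 16.3% of all and in none of the 8, and the cAMP-response letters TGACG in 18.2% of all and in *Bambi*, each searched on both strands. A match is a run of letters and not a known site.

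BMP ligand transcripts were scarce in these ND7/23 libraries. *Bmp2* (NCBI gene 29373), a secreted ligand, had 17, 19 and 23 reads in control cells, 18, 23 and 43 under menthol, 18, 21 and 13 under Wnt3a and 25, 11 and 9 under both agents. Its mean over the 12 libraries was 0.197 FPKM. The groups overlapped, and the highest library was 1 of the menthol group. *Bmp4* (NCBI gene 25296), the other ligand, had 0 reads in every control and menthol library, 2, 2 and 0 under Wnt3a and 0, 0 and 1 under both agents, all of them at or below 3 reads, the floor used here, so no change was detectable at this depth. Other ligand genes were no higher than *Bmp6* at 0.00925 FPKM, and none of the 6 listed ones with values reached the minimum for the test. *Bambi* (NCBI gene 83837), a receptor-like protein without a kinase that damps BMP and TGF-β signals, had 19, 2 and 16 reads in control cells, 6, 13 and 25 under menthol, 12, 15 and 16 under Wnt3a and 12, 18 and 24 under both agents (mean 0.119 FPKM). The control libraries held its lowest value and the menthol libraries its highest, and the groups overlapped. In a fit with no minimum, the difference with Wnt3a was −0.35 on the log2 scale for *Bmp2* (95% interval −0.79 to 0.09, limma adjusted p = 0.626) and 0.21 for *Bambi* (−0.29 to 0.70, limma adjusted p = 0.796), so changes of these sizes could not be told from none. The largest *Bmp2* difference was that of both agents against menthol, −0.60 (−1.22 to 0.02, limma adjusted p = 0.884).

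**Figure D1:**
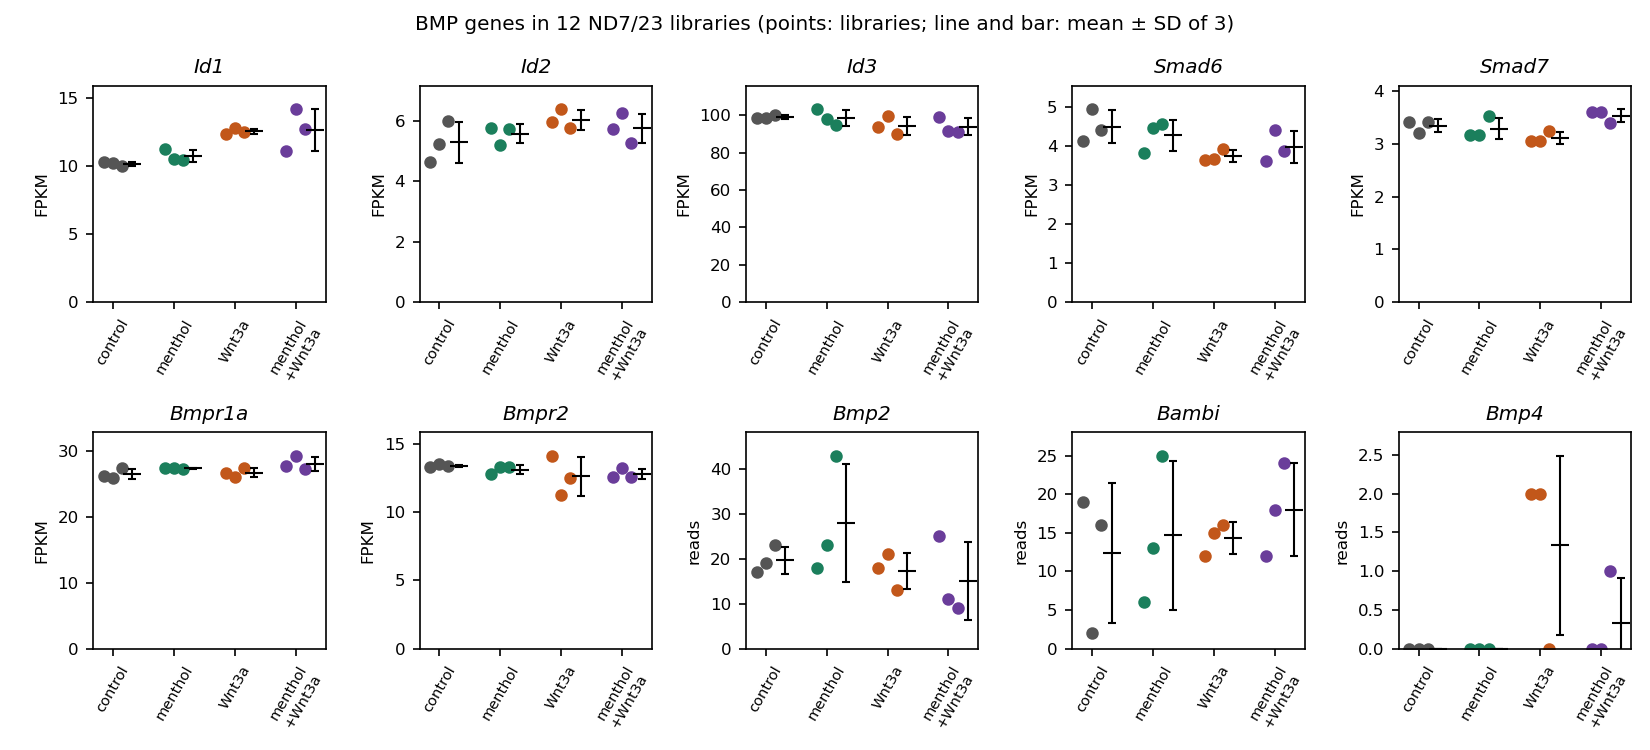
The 10 BMP genes in the 12 libraries, with FPKM on the vertical axis for 7 genes and reads for *Bmp2*, *Bambi* and *Bmp4*, each axis starting at 0. Points are libraries, and the line and bar beside them are the mean ± SD of 3. The 3 control points of *Id1* sit between 10.1 and 10.3 FPKM, below all 6 points with Wnt3a, whereas *Id3* stays between 90.2 and 103.4 FPKM.

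The receptors and SMADs that carry a BMP signal were present. *Bmpr1a* (NCBI gene 81507), a type I receptor kinase, was at 26.2, 25.9 and 27.4 FPKM in control, 27.4, 27.4 and 27.3 with menthol, 26.7, 26.0 and 27.4 with Wnt3a, and 27.7, 29.3 and 27.2 with both. The 4 groups overlapped, and the highest library was in the menthol+Wnt3a group. *Bmpr2* (NCBI gene 140590), the type II receptor that activates it, was at 13.3, 13.5 and 13.4 FPKM in control, 12.8, 13.3 and 13.3 with menthol, 14.2, 11.2 and 12.5 with Wnt3a, and 12.6, 13.2 and 12.6 with both. The Wnt3a libraries held both its lowest and its highest value. The control mean of *Bmpr1a* was 1.98 times that of *Bmpr2*. Over both menthol states, the Wnt3a difference was 0.02 for *Bmpr1a* (95% interval −0.03 to 0.08) and −0.06 for *Bmpr2* (−0.16 to 0.03) on the log2 scale, and neither passed (limma adjusted p = 0.752 and 0.579). *Smad1* and *Smad5*, which the receptors phosphorylate, were at 22.2 and 16.2 FPKM, while their relative *Smad9* was at 0.0184 FPKM. *Smad4*, the shared partner SMAD, was at 38.6 FPKM.

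Neither inhibitory SMAD gene passed the test. *Smad6* (NCBI gene 367100), which blocks BMP receptors and SMAD1, was at 4.13, 4.94 and 4.42 FPKM in control cells, 3.83, 4.46 and 4.56 under menthol, 3.64, 3.67 and 3.93 under Wnt3a and 3.61, 4.41 and 3.88 under both agents. All 3 Wnt3a libraries lay below all 3 control libraries, as they did for 10.1% of all tested genes. The menthol+Wnt3a libraries overlapped those of every other group. The *Smad6* difference was −0.25 on the log2 scale for Wnt3a against control (limma adjusted p = 0.212) and −0.18 over both menthol states (95% interval −0.32 to −0.04, limma adjusted p = 0.221). *Smad7* (NCBI gene 81516), which blocks TGF-β and BMP receptors alike, was at 3.41, 3.21 and 3.42 FPKM in control, 3.17, 3.17 and 3.52 with menthol, 3.05, 3.05 and 3.26 with Wnt3a, and 3.61, 3.61 and 3.40 with both. Here the 3 menthol+Wnt3a libraries lay above the 3 Wnt3a libraries, as they did for 9.11% of all tested genes (log2 difference 0.18, limma adjusted p = 0.272). The test of whether menthol acted differently with and without Wnt3a gave 0.20 for *Smad7* (95% interval −0.01 to 0.41, limma adjusted p = 0.727).

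*Id1*, an antagonist of E proteins, was the 1 of the 10 genes called in any comparison, and it was higher with Wnt3a. *Id1* (NCBI gene 25261) was at 10.3, 10.2 and 10.1 FPKM in control, 11.3, 10.6 and 10.5 with menthol, 12.4, 12.8 and 12.5 with Wnt3a, and 11.1, 14.2 and 12.7 with both. The 3 libraries of each treated group lay above the 3 control libraries. Taking each group by itself, this held for 7.48% of all tested genes with menthol, 10.1% with Wnt3a and 10.5% with both. Replicate 1 of the menthol+Wnt3a group lay below replicate 1 of the menthol group. The 6 libraries with Wnt3a and the 6 without therefore overlapped. The means were 10.2 ± 0.143 FPKM in control cells, 10.8 ± 0.448 under menthol, 12.6 ± 0.214 under Wnt3a and 12.7 ± 1.52 under both agents (SD, n = 3). Over both menthol states Wnt3a raised *Id1* 1.20-fold on the log2(FPKM + 0.1) scale (log2 difference 0.26, SE 0.0481, limma adjusted p = 0.0199). An exact permutation test of this gene alone within the menthol states gave p = 0.01, where 0.005 is the smallest possible. That test was run for *Id1* only, on the same libraries, so it is not independent of the call. Over all tested genes, limma called 0.803% for Wnt3a over both menthol states, and 0.472% were called higher. The call was lost without control replicate 2 (limma adjusted p = 0.0506), control replicate 3 (0.0547), menthol replicate 2 (0.0578), menthol replicate 3 (0.0566), Wnt3a replicate 2 (0.0605) or menthol+Wnt3a replicate 3 (0.0508), and in a fit with no FPKM minimum (0.0728), with log2 differences of 0.22 to 0.31 in all alternatives.

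Taken pair by pair, the *Id1* differences did not pass. They were 0.30 on the log2 scale for Wnt3a against control (limma adjusted p = 0.0791, 0.0341 to 0.265 over the alternatives), 0.31 for both agents against control (0.057, 0.00608 to 0.184) and 0.23 for both agents against menthol (0.45). The first 2 of these share the control libraries. For menthol against control the difference was 0.08 (limma adjusted p = 0.78), although the 3 menthol libraries lay above the 3 control libraries, as they did for 7.48% of all tested genes. For both agents against Wnt3a, *Id1* differed by 0.01 (95% interval −0.14 to 0.15, limma adjusted p = 0.977). The interaction of the agents was −0.07 (95% interval −0.28 to 0.14, limma adjusted p = 0.896).

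*Id3* was the most abundant of the 10 genes and passed the test in no comparison. *Id3* (NCBI gene 25585), of the same family, was at 98.4, 98.5 and 100.2 FPKM in control, 103.4, 98.0 and 94.99 with menthol, 93.8, 99.5 and 90.2 with Wnt3a, and 99.4, 91.5 and 91.2 with both. Its level in control was 9.71 times that of *Id1* and 18.7 times that of *Id2*. With Wnt3a it differed by −0.07 on the log2 scale (95% interval −0.14 to −0.01, limma adjusted p = 0.317). *Id2* (NCBI gene 25587), the third ID gene here, was at 4.64, 5.23 and 6.00 FPKM in control, 5.78, 5.21 and 5.74 with menthol, 5.95, 6.39 and 5.76 with Wnt3a, and 5.74, 6.25 and 5.27 with both. The control libraries alone covered most of its range, and its Wnt3a difference was 0.12 (95% interval −0.02 to 0.26, limma adjusted p = 0.433). As a description chosen after the values were seen, the ratio of *Id1* to *Id3*, with 0.1 FPKM added to each, was 0.101 to 0.111 in the 6 libraries without Wnt3a and 0.113 to 0.156 in the 6 with it. The ratio of *Id1* to *Smad6* was 2.04 to 2.90 without and 3.03 to 3.43 with Wnt3a. The other 4 ratios overlapped, at 1.66 to 2.20 without and 1.92 to 2.39 with Wnt3a for *Id2*, 2.88 to 3.48 and 3.03 to 4.10 for *Smad7*, 0.369 to 0.413 and 0.405 to 0.495 for *Bmpr1a*, and 0.753 to 0.884 and 0.877 to 1.14 for *Bmpr2*. Of the 6 ratios of *Id1* to another tested BMP gene, the log2 ratio to *Id3* differed by 0.34 with Wnt3a (SE 0.071, two-sided exact permutation p = 0.005, the smallest possible, adjusted p = 0.01 over the 6), and that to *Id2* by 0.15 (SE 0.0795, exact permutation p = 0.1, adjusted p = 0.1). The log2 ratios to *Smad6*, *Bmpr2*, *Smad7* and *Bmpr1a* differed by 0.445, 0.328, 0.262 and 0.241 (exact permutation adjusted p = 0.01, 0.01, 0.024 and 0.015). A difference in ratio was thus not particular to *Id3*. Without control replicate 1 or menthol+Wnt3a replicate 1, the exact permutation test of the ratio to *Id2* gave an adjusted p of 0.025 or 0.04. These ratios share *Id1* and were picked because of it, so they are not independent of its call.

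**Figure D2:**
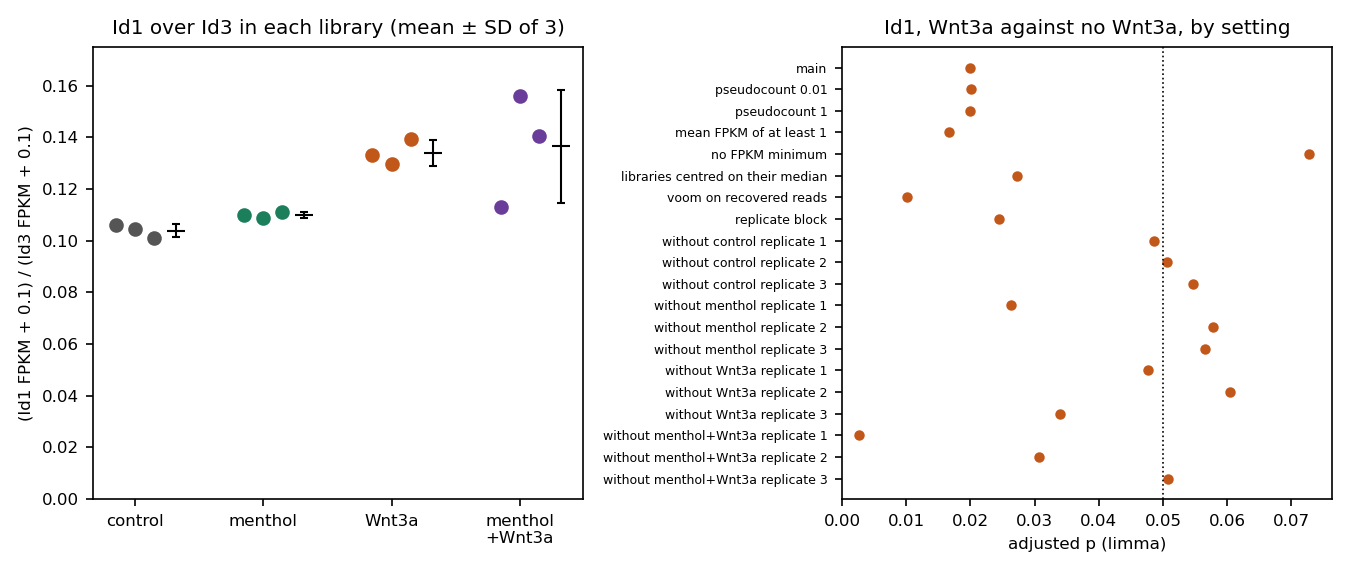
Left, the ratio of *Id1* to *Id3* in each library, with 0.1 FPKM added to both and the mean ± SD of 3 beside the points: the libraries with Wnt3a start at 0.113 and those without end at 0.111. Right, the limma adjusted p of *Id1* for Wnt3a against no Wnt3a under each setting, with a dotted line at 0.05: the values run from 0.00264 to 0.0728.

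Counted over the 7 genes that reached the minimum, *Id1* was the 1 called for Wnt3a over both menthol states by limma and by limma voom (2.44% of all genes with voom), 3 had an unadjusted p under 0.05 (*Id1*, *Id3* and *Smad6*, against 14.2% of all genes), and the median size of the log2 difference was 0.07 against 0.04 over all tested genes. For Wnt3a against control, limma called 0 of 7 (0.437% of all genes), 3 had an unadjusted p under 0.05 (*Id1*, *Id2* and *Smad6*, against 15.1% of all genes), and limma voom on the recovered reads called *Id1* (2.65%). Menthol alone moved none of them past a threshold. For menthol against control, limma and limma voom called 0 of 7 (0.105% and 0.524% of all genes) and 0 had an unadjusted p under 0.05 (9.34%). For both agents against Wnt3a, 0 of 7 were called by either tool (0.0524% and 1.25% of all genes), and *Smad7* had an unadjusted p under 0.05 (14.5%). For both agents against menthol, 0 of 7 were called by either tool (0.0961% and 0.288% of all genes), and *Id1* had an unadjusted p under 0.05 (6.72%). *Id1* also led the comparison of both agents with control. For both agents against control, limma called 0 of 7 (0.83% of all genes), limma voom called *Id1* (2.28%), and *Id1* and *Bmpr1a* had an unadjusted p under 0.05 (13.5%). Menthol over both Wnt3a states called 0 of 7 by either tool (1.15% and 2.57% of all genes), with *Bmpr1a* at an unadjusted p under 0.05 (15.5%, log2 difference 0.06, 95% interval 0.00 to 0.12, limma adjusted p = 0.306). The interaction called 0 of 7 by either tool (0% of all genes in both), with 0 at an unadjusted p under 0.05 (6.99%). With the fold threshold that the study used for its own calls, more than 2-fold, 0 of the 7 passed in any comparison, against 0.0175% of all genes for Wnt3a against control, 0.00873% for menthol against control, 0.00873% for menthol over both Wnt3a states and 0% in the others.

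**Figure D3:**
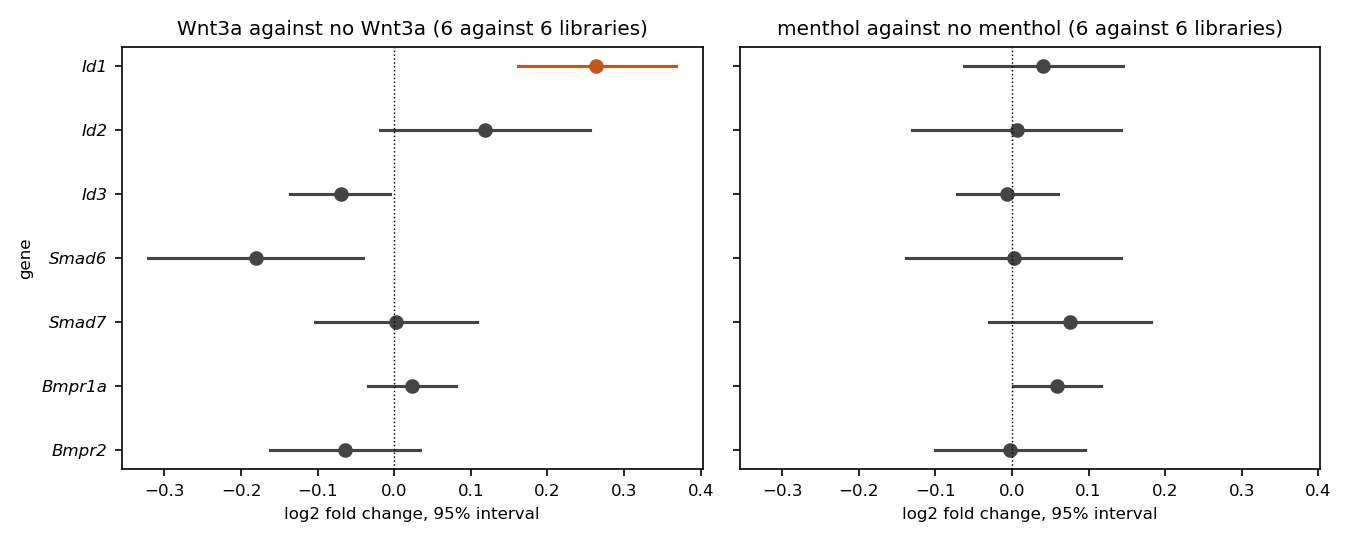
Log2 fold changes of the 7 tested BMP genes with 95% intervals (limma, horizontal axis), for Wnt3a against no Wnt3a on the left and menthol against no menthol on the right, 6 against 6 libraries in each. *Id1* with Wnt3a, at 0.26, is the 1 gene called and is drawn in orange.

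For 4 of the 7 genes, 2 groups were separate in some comparison. With Wnt3a against control, *Id1* was above in all 3 libraries and *Smad6* below, which held for 10.1% of all tested genes in each direction and 20.2% in all. With both agents against control, *Id1* was above (10.5% of all genes) and *Bmpr2* below (9.98%, 20.5% in all). With menthol against control *Id1* alone was separate (15.9% in all), with both agents against Wnt3a *Smad7* alone was above (9.11%, 17.7% in all), and with both agents against menthol 0 of 7 were separate (11.3%). None of the 7 was free of overlap between all 6 libraries with an agent and all 6 without it, which held for 1.17% of all genes for Wnt3a and 1.54% for menthol.

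By mean level over the 12 libraries the order was *Id3* at 96.6 FPKM, *Bmpr1a* at 27.2, *Bmpr2* at 13.0, *Id1* at 11.6, *Id2* at 5.66, *Smad6* at 4.12, *Smad7* at 3.32, *Bmp2* at 0.197, *Bambi* at 0.119, and then *Bmp4*. Neighbours whose ranges over the libraries overlapped were *Bmpr2* and *Id1*, *Id2* and *Smad6*, *Bmp2* and *Bambi*, and *Bambi* and *Bmp4*. Within single libraries *Bmpr2* was above *Id1* in 8 of 12 and *Bmp2* above *Bambi* in 9 of 12. Every other step in the order held in 12 of 12. *Smad6* and *Smad7* lay closest in menthol+Wnt3a replicate 1, where both rounded to 3.61 FPKM.

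Of 48 other genes of the pathway on a fixed list, 41 had values and 21 were tested, and limma called 0 of the 21 in any of the 8 comparisons. At an unadjusted p under 0.05 there were 1 for menthol against control (9.34% of all genes), 4 for Wnt3a against control (15.1%), 2 for both agents against Wnt3a (14.5%), 1 for both agents against menthol (6.72%), 3 for both agents against control (13.5%), 4 for menthol over both Wnt3a states (15.5%), 2 for Wnt3a over both menthol states (14.2%) and 0 for the interaction (6.99%). With limma voom, *Tcf4*, which encodes an E protein that ID proteins bind, was called higher with Wnt3a over both menthol states, and *Fst*, which encodes the secreted antagonist follistatin, was called lower, where limma voom called 2.44% of all genes. By the same tool *Fst* was also called for Wnt3a against control (2.65% of all genes), *Tcf4* for both agents against menthol (0.288%) and for both agents against control (2.28%), and 0 of the 21 in the other 4 comparisons. With limma, *Tcf4* differed by 0.19 on the log2 scale for Wnt3a over both menthol states (adjusted p = 0.0512) and *Fst* by −0.22 (adjusted p = 0.169). *Fst* was the most abundant secreted antagonist at 100.4 FPKM, with 82.3 to 130.0 FPKM over the libraries. The antagonist noggin, encoded by *Nog*, had 0 to 1 reads per library. Most abundant in their roles were *Acvr2a* among the other receptors (5.58 FPKM), *Tgfbr3* among co-receptors (12.6), *Smurf2*, a ubiquitin ligase, among intracellular regulators (20.9), *Msx1*, a homeobox gene, among other targets (7.23) and *Tcf12* among E proteins (26.8).

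**Figure D4:**
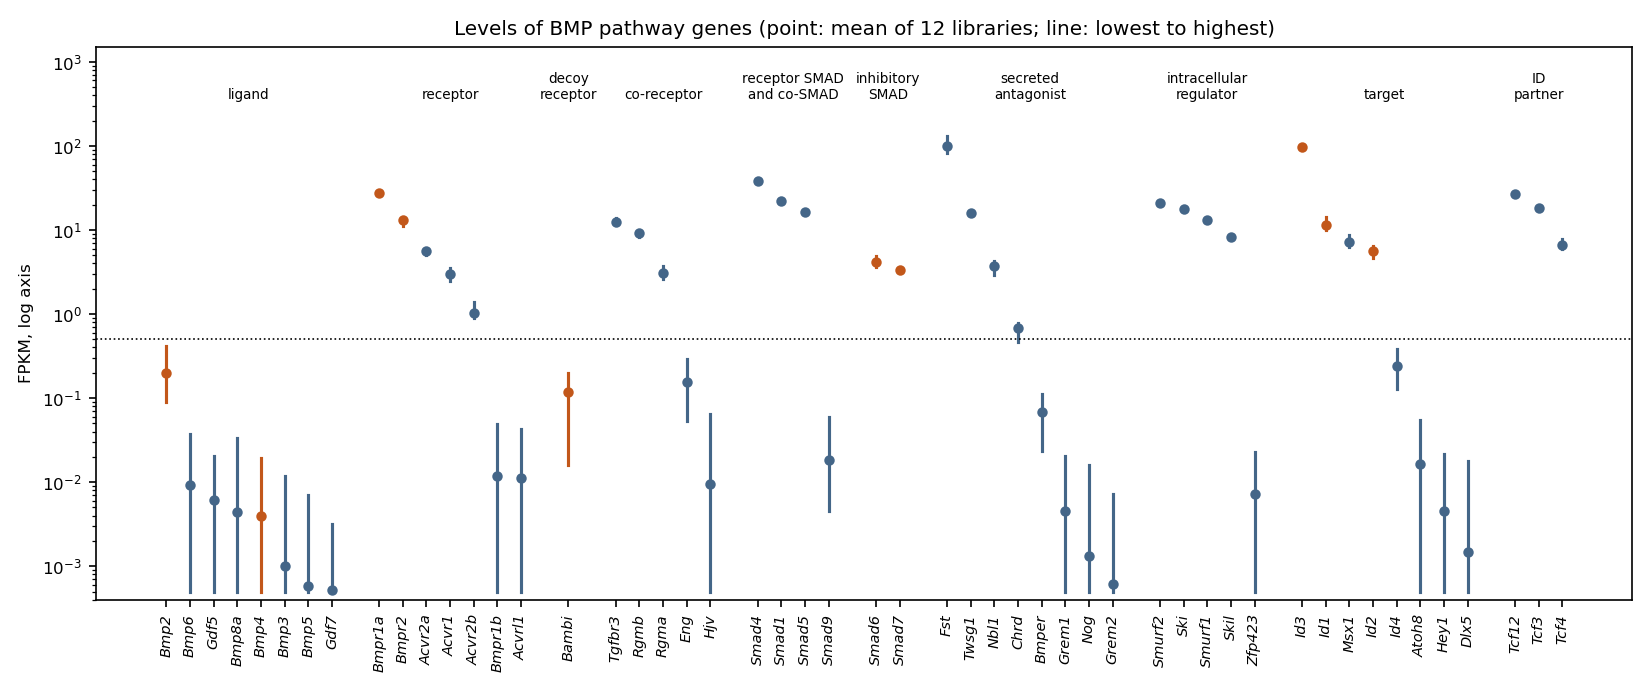
Mean FPKM over the 12 libraries (log axis) of the BMP genes in orange and the other pathway genes in blue, by role, with lines from the lowest to the highest library and values at 0 drawn at the bottom of the lines. The dotted line is the minimum of 0.5 FPKM for the test: every ligand lies below it, *Bmp2* at 0.197 FPKM being the highest, and *Fst* at 100.4 and *Id3* at 96.6 FPKM are at the top.

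Within groups the response genes did not vary together beyond the test. Over the 15 pairs of *Id1*, *Id2*, *Id3*, *Smad6*, *Smad7* and *Bambi*, with group means removed in 12 libraries, 0 correlations passed after adjustment over the pairs. The lowest p was that of *Id3* and *Smad6* (Pearson r = −0.659, exact permutation p = 0.042, adjusted p = 0.637, Spearman rho = −0.608, exact permutation p = 0.082, adjusted p = 0.613). Without the 2 libraries farthest from the median of *Id3*, r was −0.631. *Id1* and *Id3* had r = −0.27 (exact permutation p = 0.637, adjusted p = 0.898) and rho = 0.05 (exact permutation p = 0.917, adjusted p = 0.981), and r was 0.659 without the 2 libraries farthest from the median of *Id1*, so its sign rested on those libraries.

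Across the 12 libraries, the tested genes whose levels were most like those of *Id1* by Pearson r of log2(FPKM + 0.1) were *Akr1b8* (0.922), *Rhou* (0.873) and *Rnf113a1* (0.873). For *Id2* they were *Fmr1nb* (0.889), *Uqcrh* (0.889) and *Pdhx* (0.887), and for *Id3* *Cxcl1* (0.878), *Ifrd1* (0.865) and *Apex1* (0.845). These are the highest of 11451 values each, over libraries that share groups, and they are a description.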

How the data were processed

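Group and replicate number of the 12 libraries came from the sample labels. Libraries were made with the VAHTS Universal V6 kit and sequenced as paired reads. Per the submitters' processing notes and the supplementary methods, the authors used fastp, HISAT, HTSeq, R 3.2.0 and DESeq2 with the rat build mRatBN7.2, and deposited FPKM for 21556 genes in 1 column per library. How reads of the mouse parent were assigned to rat genes is not given in the sources used here. Because FPKM is relative to the library, other genes fall where a few abundant ones rise.

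The 10 genes, the gene lists and the naming rule were chosen with earlier results of these data known. The rule named the 10 genes, other pathway genes with a call and the most abundant per role, *Axin2*, and the 3 genes most like each ID gene. Of the 48 other pathway genes, 7 were not analysed here. Tests were limma 3.58.1 (R 4.3.3, trend) on log2(FPKM + 0.1), all 12 libraries in 1 fit, a mean of at least 0.5 FPKM (11451 genes), and Benjamini-Hochberg adjustment. The added 0.1 understates changes of low genes. Exact permutation tests used Python 3.11.15 with rearrangement within the other agent's states or within groups. Scripts were tested on simulated data.

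Reads were recovered from the FPKM steps, to within a relative distance of 3.4e-13, with 1804 genes above 0 in 1 library only. On a 1 kb gene 3 reads, the floor, equal 0.0772 to 0.0813 FPKM, counting error only. Within groups, libraries differed beyond sampling noise (chi-square per degree of freedom 3.48 to 7.27). Alternatives were pseudocounts of 0.01 and 1, a minimum of 1 FPKM or none, centred libraries, limma voom on the reads, fits of 2 groups, the replicate number as a block, each library left out, and a 2-fold threshold.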

Additional observations from a re-analysis of the deposited data

How the results depend on the processing

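In the 504 recomputed values for single genes, 457 kept their direction and side of the threshold, 7 lost it, 5 gained it and 35 reversed, with 0 of those past the threshold. Called genes for Wnt3a over both menthol states numbered 1 and became 0 with no FPKM minimum and 0 with the 2-fold threshold, and 0 to 1 with 1 library left out. For Wnt3a against control the count of 0 became 1 with limma voom and 1 with only the 2 groups fitted (*Id1*, limma adjusted p = 0.0483 and 0.039), and 0 to 1 with 1 library left out, the 1 arising without menthol+Wnt3a replicate 1. For both agents against control it became 1 with limma voom (0.0435) and 0 to 1 with 1 library left out, the 1 arising without menthol+Wnt3a replicate 1. With centred libraries 4 differences reversed: *Id1* for both agents against Wnt3a (−0.006), *Id2* and *Smad6* for menthol (−0.002 and −0.005) and *Smad7* for Wnt3a (−0.004). With 1 library left out, log2 differences ran from −0.043 to 0.04 for *Bmpr2*, 0 to 0.086 for *Id1*, −0.039 to 0.053 for *Id2*, −0.026 to 0.013 for *Id3* and −0.036 to 0.041 for *Smad6* with menthol, −0.013 to 0.026 for *Smad7* with Wnt3a, −0.077 to 0.096 for *Id1* with both agents against Wnt3a and −0.154 to 0.019 for its interaction. The cause was not tested. Same-numbered libraries of different groups correlated with a median r of 0.013 (−0.055 to 0.153, 1 of 18 pairs over 0.1). The labels do not say whether they shared a culture, and a correlation over all tested genes cannot decide this. The replicate block left *Id1* called for Wnt3a (limma adjusted p = 0.0244) and changed no call of the 7 tested BMP genes. It moved the count over all genes from 12 to 21 for menthol against control and from 6 to 24 for both agents against Wnt3a. Over all genes the counts for menthol against control, Wnt3a against control, both against Wnt3a, both against menthol, both against control, menthol and Wnt3a were 12, 50, 6, 11, 95, 132 and 92, with limma voom 60, 303, 143, 33, 261, 294 and 279, and with no FPKM minimum 2, 9, 0, 2, 60, 85 and 57. The interaction count of 0 became 1 with no FPKM minimum. With 1 library left out, these counts ran from 0 (without control replicate 3) to 15 (without menthol+Wnt3a replicate 1), 6 (control replicate 3) to 291 (Wnt3a replicate 3), 0 (Wnt3a replicate 1, among others) to 38 (Wnt3a replicate 3), 3 (menthol replicate 1, among others) to 14 (control replicate 1), 41 (menthol+Wnt3a replicate 2) to 100 (menthol+Wnt3a replicate 1), 52 (menthol replicate 3) to 143 (Wnt3a replicate 3) and 55 (control replicate 1) to 151 (Wnt3a replicate 3), and from 0 to 1 for the interaction. With only the 2 groups fitted the first 5 were 3, 17, 0, 4 and 49. *Bmp2*, *Bambi* and *Bmp4* lay under the FPKM minimum and were fitted only without it, and *Bmp4* had at most 2 reads in a library.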
